A study of Mus musculus with 8 samples.

Results

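Lysosomes are the acidic compartments in which cells break down proteins, glycans and lipids. A proton pump in the membrane keeps them acidic, soluble hydrolases cut the cargo, small activator proteins present lipids to those enzymes, and membrane proteins line the organelle or carry products out. Transcription factors of the MiT/TFE family, among them Tfeb and Tfe3, bind E-box sequences near many lysosomal genes and raise their expression. In the dermis, fibroblasts use lysosomes to degrade collagen and other matrix that they take up.

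The genes described here are 34 lysosomal hydrolases, activators, membrane proteins, pump subunits and regulators, chosen by name. A gene counted as measured where the platform annotation gave some probe set its symbol alone, and the brightest such probe set by mean over the arrays was used. This held for 31 of the 34, among 17097 genes in all. Cd63, Neu1 and Idua were not analysed here. Expression arrays, 1 for each animal, were run on dermal fibroblasts of 8 male C57Bl/6 mice: 4 were young, at 2 months, and 4 were old, at 18 months. The labels name no treatment or engineered allele. After collagenase digestion of skin freed of subdermis, cells with Pdgfra and CD34 were sorted, and cells with EpCam, CD31, CD24, CD117 or CD45 were left out. The arrays thus describe only cells sorted by that gate, whose purity was not tested here. Mice of both ages were taken on each collection day, and the labels do not tie a mouse to its day. RNA of 5000 cells per mouse was amplified for 21 cycles. In such bulk samples, fewer cells expressing a gene and less RNA per cell cannot be told apart. Values are log2 expression, on which a difference of 1 is a 2-fold change.

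No lysosomal gene of the 31 changed past the threshold of limma's test (adjusted p under 0.05), and the estimated differences were small. Most pointed upward in old mice: the difference of means was above 0 for 26 genes and below 0 for 5, against 53.1% above 0 among all 17097 genes. The median difference was 0.11, against 0.01 for all genes and -0.005 for genes brighter than the median of all probe sets (5.10), called the dim threshold from here on. Over the whole array, 3.97% of genes passed (1.82% higher and 2.15% lower in old mice). At an unadjusted p under 0.05, 10 of the 31 were higher and 1 was lower in old mice, against 6.8% and 8.28% of all genes. The values of all 4 old mice lay above those of all 4 young mice for 7 of the 31 (4.49% of all genes), namely Npc2, Psap, Gm2a, Asah1, Man2b1, Tfe3 and Cln3. For none did they all lie below (5.21% of all genes). Of the 31 genes, 29 were brighter than the dim threshold. Among all genes that bright, 5.94% passed limma's threshold, 9.34% were higher and 12.1% lower at an unadjusted p under 0.05, 5.8% were higher without overlap, and 48.6% had a difference above 0. The 95% intervals of the differences, each for a single gene, lay between -0.61 and 0.71 for all 31 genes, so a 2-fold change fell outside every one.

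**Figure D1:**
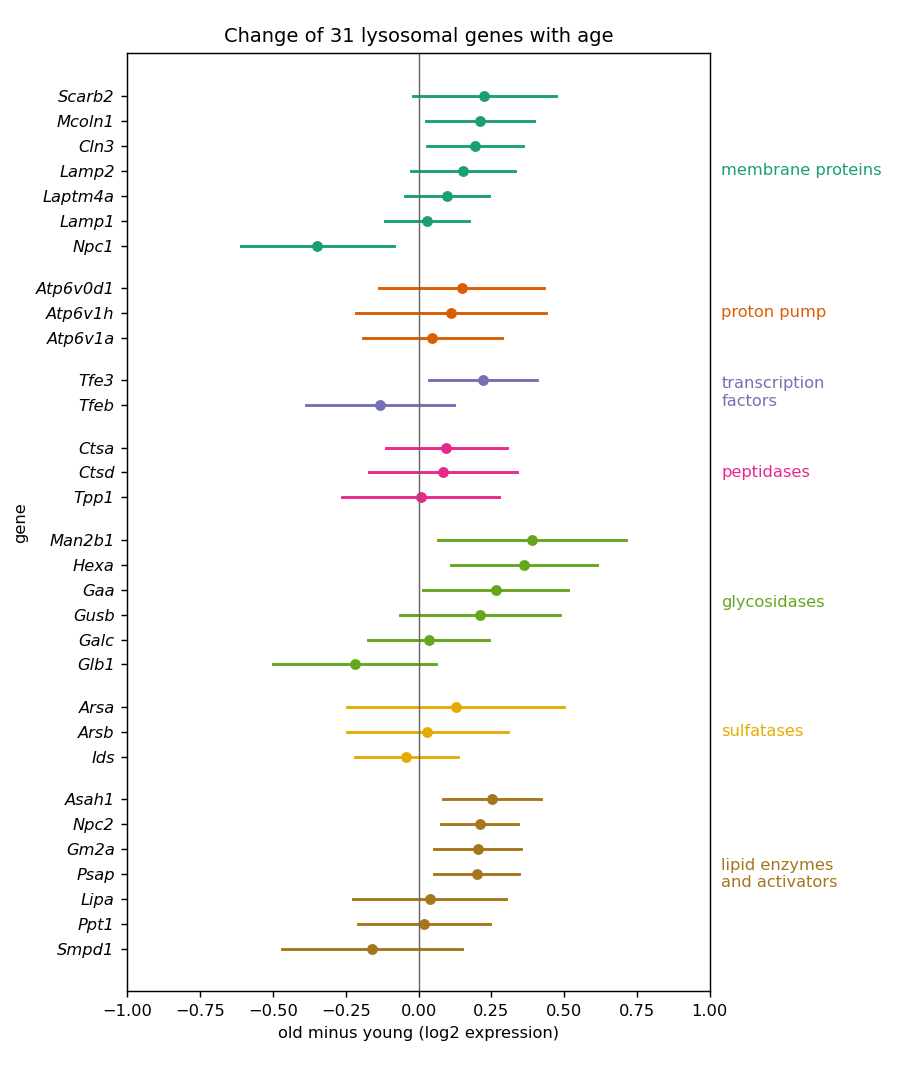
Difference between old and young mice (log2 expression, points) with its 95% interval from limma (lines, n = 4 mice per age) for the 31 measured genes, grouped by role. The intervals stay within -0.61 and 0.71, and 11 of them exclude 0, those of Npc1 below it and the others above it.

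The E-box that MiT/TFE factors bind was looked for in the promoters of these genes. RefSeq promoters (GRCm38.p6, 250 bases before to 50 bases after an annotated start) were given for 31 of the 34 genes, those of Npc1, Atp6v1h and Asah1 being the exceptions. The E-box core CACGTG, which reads the same on both strands, was in the promoters of 10 of these 31 genes, or 32.3%, against 8.09% of the 27025 genes with a promoter and 10.2% of those measured on the arrays. In all 10 it stood in the longer form TCACGTG on one strand or the other. This form was held by 4.29% of all genes and 5.78% of those measured on the arrays. The form TCACGTGA, in which the core is flanked on both sides and which contains both shorter forms, was in 6 of the 31 (19.4%). It was in 1.12% of all genes and in 1.67% of those measured on the arrays. These forms were chosen from an element already known in lysosomal genes. A higher share among genes chosen as lysosomal is therefore no independent result. Windows of 6 genes are shown 5′ to 3′ on the strand of the gene, with 15 bases on each side and the flanked core in capitals. The first 3 belong to members with an unadjusted p under 0.05 and the others to members without.
Mcoln1: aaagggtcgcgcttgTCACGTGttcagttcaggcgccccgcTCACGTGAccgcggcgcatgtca
Cln3: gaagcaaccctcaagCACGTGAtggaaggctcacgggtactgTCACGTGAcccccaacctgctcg
Gaa: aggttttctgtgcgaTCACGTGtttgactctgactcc
Lamp1: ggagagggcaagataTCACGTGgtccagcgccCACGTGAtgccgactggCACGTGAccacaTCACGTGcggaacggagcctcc
Ctsa: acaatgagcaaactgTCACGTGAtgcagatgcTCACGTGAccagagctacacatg
Atp6v0d1: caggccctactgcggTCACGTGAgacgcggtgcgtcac

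The Mcoln1 window lies at chr8:3500432-3500495 on the plus strand, with motifs that begin 72 and 46 bases before the start. That of Cln3 lies at chr7:126583336-126583400 on the minus strand, with motifs 149 and 122 bases before the start. The single motif of Gaa begins 141 bases before the start (chr11:119267807-119267843, plus strand). Lamp1 holds 4 motifs, the first of which begins 62 and the last 16 bases before the start (chr8:13159084-13159166, plus strand). The pair in Ctsa lies on either side of the start (chr2:164833745-164833799, plus strand). The single motif of Atp6v0d1 begins 4 bases before the start (chr8:105566046-105566083, minus strand). The other genes with the motif were Atp6v1a, Ctsd, Glb1 and Arsa. Among measured genes the median difference was 0.11 for the 10 with CACGTG and 0.13 for the 18 without, and 3 and 6 of them, respectively, had an unadjusted p under 0.05. The ages did not overlap for 1 of the 10 and for 5 of the 18. The difference between genes with and without the motif was not tested. These matches describe letters in a window, not bound sites.

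Neither of the 2 factors Tfe3 and Tfeb passed limma's threshold, and the difference between them was not tested. Tfe3 read 9.85, 9.56, 9.80 and 9.85 in young replicates 1 to 4 and 9.99, 10.09, 9.95 and 9.92 in old replicates 1 to 4. The groups did not overlap, and the lowest young value was that of replicate 2. The difference was 0.22 ± 0.08 (SE, n = 4 against 4), a 1.17-fold ratio (limma adjusted p = 0.219). Tfeb, the best known regulator of lysosome formation, was measured by 1 probe set whose mean of 4.88 lay below the dim threshold. Its values ran from 4.71 to 5.23 in young and from 4.70 to 4.94 in old mice, and the difference was -0.13 ± 0.11 (adjusted p = 0.693). At this signal a change in Tfeb could be missed. Mitf, another factor of the family, read 7.51, 7.64, 7.49 and 8.10 in young and 7.76, 8.02, 8.74 and 8.49 in old mice. The groups overlapped through young replicate 4, and the difference of 0.57 ± 0.22 did not pass (adjusted p = 0.231, or 0.042 with array weights). Its limma adjusted p rose to 0.433 with 1 mouse left out and to 0.492 over all alternatives. Tfec lay below the dim threshold in all 8 mice (3.91 to 4.26).

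Genes for lipid breakdown held 4 of the 7 genes whose ages did not overlap. Npc2 encodes the soluble protein that hands cholesterol to Npc1 for export from the lysosome. It read 11.80, 11.83, 11.84 and 11.72 in young and 12.02, 11.98, 12.00 and 12.03 in old mice, so the ages were 0.14 apart at their nearest. The difference was 0.21 ± 0.06 (SE), or 1.16-fold. This was the smallest p of the 31 genes and missed the threshold (limma adjusted p = 0.0951, or 0.0457 with a prior that depends on the mean level). With single mice left out its adjusted p ran from 0.132 to 0.212. At an adjusted p under 0.1 Npc2 alone of the 31 passed, against 6.33% of all genes (2.89% higher in old mice). Psap encodes prosaposin, the precursor of the saposins that activate sphingolipid hydrolases. It read 12.21, 12.11, 12.16 and 12.00 in young and 12.33, 12.33, 12.30 and 12.32 in old mice. The old mice lay within 0.03 of each other and the young mice spread over 0.21. The difference was 0.20 ± 0.07 (adjusted p = 0.149). Gm2a, the activator protein that presents GM2 ganglioside to the enzyme encoded by Hexa, read 8.77, 8.92, 8.93 and 8.83 in young and 9.04, 9.15, 9.04 and 9.03 in old mice. Its difference was 0.20 ± 0.07 (adjusted p = 0.149). Asah1, acid ceramidase, read 9.11, 9.27, 9.35 and 9.09 in young and 9.43, 9.42, 9.48 and 9.50 in old mice, the nearest pair being 0.07 apart. Its difference was 0.25 ± 0.08 (adjusted p = 0.114).

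The other 3 lipid enzymes did not share this pattern. Lipa, the acid lipase of the lysosome, differed by 0.04 ± 0.12 and Ppt1, which removes palmitate from proteins, by 0.02 ± 0.10. Smpd1, acid sphingomyelinase, differed by -0.16 ± 0.14. The young and old values of all 3 overlapped, and the limma adjusted p was 0.944, 0.971 and 0.698.

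**Figure D2:**
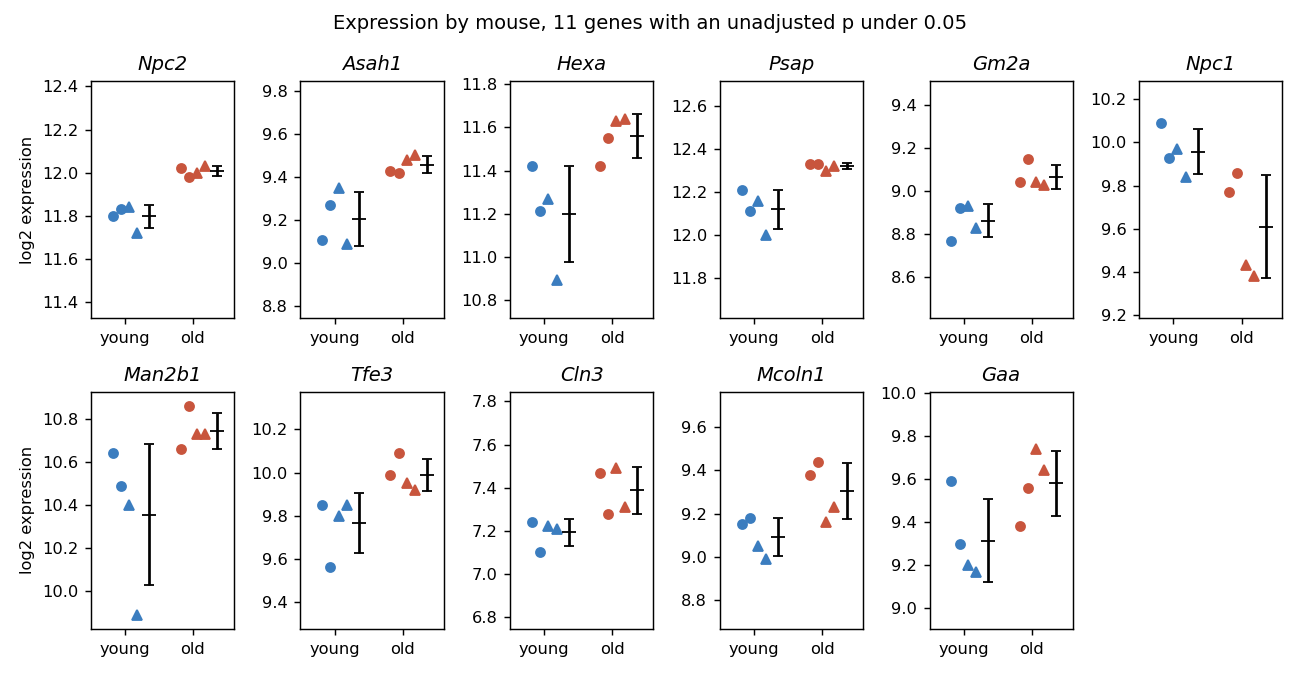
Expression (log2) by mouse for the 11 genes with an unadjusted p under 0.05, ordered by p. Points are mice, circles for replicates 1 and 2 and triangles for replicates 3 and 4, and bars give the mean ± SD (n = 4); each panel spans the same height of the scale. Npc2 has its ages parted by 0.14, whereas Hexa meets at 11.42 and the old values of Npc1 fall into a higher and a lower pair.

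Npc1, the membrane transporter that takes cholesterol from Npc2, differed the other way. It read 10.09, 9.93, 9.97 and 9.84 in young and 9.77, 9.86, 9.43 and 9.38 in old mice. Old replicate 2 lay above young replicate 4, so the ages overlapped, and old replicates 3 and 4 lay clearly lower than the other old mice. The difference was -0.35 ± 0.12 (SE), a ratio of 0.786 (adjusted p = 0.167). It was -0.20 within the first and -0.50 within the second of the runs of title numbers described below, and with these runs as a block the adjusted p was 0.0507.

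Among the other membrane proteins, Cln3 was the member without overlap. Cln3 encodes a lysosomal protein that is lost in juvenile Batten disease. It read 7.24, 7.10, 7.22 and 7.21 in young and 7.47, 7.28, 7.49 and 7.31 in old mice, with a difference of 0.20 ± 0.07 (adjusted p = 0.227). Mcoln1, the calcium channel of the lysosome, read 9.15, 9.18, 9.05 and 8.99 in young and 9.38, 9.44, 9.16 and 9.23 in old mice. Old replicate 3 lay just below young replicate 2, and the difference was 0.21 ± 0.08 (adjusted p = 0.249). Lamp1 and Lamp2 encode the main glycoproteins of the lysosomal membrane. Lamp1 read 11.21, 11.23, 11.29 and 11.25 in young and 11.18, 11.24, 11.36 and 11.31 in old mice, and its difference of 0.03 had a 95% interval of -0.12 to 0.17. Lamp2 differed by 0.15 ± 0.08 and Scarb2, the receptor that brings glucocerebrosidase to lysosomes, by 0.23 ± 0.11 (adjusted p = 0.430 and 0.382). Laptm4a, a small protein of late endosomes and lysosomes, read 12.28, 12.29, 12.32 and 12.16 in young and 12.30, 12.34, 12.39 and 12.41 in old mice. Only young replicate 4 stood apart, and the difference was 0.10 ± 0.06 (adjusted p = 0.563).

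The differences of the 6 glycosidases ranged from -0.22 to 0.39. Man2b1, which trims mannose from glycoproteins, read 10.64, 10.49, 10.40 and 9.89 in young and 10.66, 10.86, 10.73 and 10.73 in old mice. The ages came within 0.02 of each other and young replicate 4 lay 0.51 below the next young mouse. The difference of 0.39 ± 0.14, or 1.31-fold, was the largest of the 31 genes (adjusted p = 0.216). Hexa, the alpha subunit of beta-hexosaminidase, read 11.42, 11.21, 11.27 and 10.89 in young and 11.42, 11.55, 11.63 and 11.64 in old mice. The highest young and the lowest old value were equal, and young replicate 4 was again the lowest. The difference was 0.36 ± 0.11 (adjusted p = 0.125). Gaa, which degrades glycogen, read 9.59, 9.30, 9.20 and 9.17 in young and 9.38, 9.56, 9.74 and 9.64 in old mice. The ages overlapped through young replicate 1, and the difference was 0.27 ± 0.11 (adjusted p = 0.289). Gusb, the beta-glucuronidase, differed by 0.21 ± 0.12 and Galc, which degrades galactolipids, by 0.04 ± 0.09. Glb1, the beta-galactosidase whose activity is stained as a mark of senescence, differed by -0.22 ± 0.12, with values from 7.02 to 7.38 in young and from 6.76 to 7.26 in old mice (adjusted p = 0.477).

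Peptidases, sulfatases and pump subunits differed little on the brightest probe set of each gene. By that probe set, none of the 3 peptidases, 3 sulfatases or 3 pump subunits had an unadjusted p under 0.05. Other probe sets of Ctsa, Tpp1 and Ids did, as given below. The peptidase genes Ctsa, Ctsd and Tpp1 differed by 0.10 ± 0.09, 0.08 ± 0.11 and 0.01 ± 0.12. The sulfatase genes Arsa, Arsb and Ids differed by 0.13 ± 0.17, 0.03 ± 0.12 and -0.04 ± 0.08. Arsa had an SD of 0.063 in young and of 0.391 in old mice, where old replicate 1 read 7.10 and the others 7.71 to 7.95. Without that mouse Arsa differed by 0.32 (adjusted p = 0.0728). The Arsb probe set lay below the dim threshold (mean 5.04). The pump subunit genes Atp6v0d1, Atp6v1a and Atp6v1h differed by 0.15 ± 0.13, 0.05 ± 0.11 and 0.11 ± 0.15. All 3 pump genes spread more among young than among old mice. Their young SDs were 0.277, 0.206 and 0.321, with young replicate 4 at 9.95 and 7.20, the lowest mouse for Atp6v0d1 and Atp6v1h, and at 10.06, the highest, for Atp6v1a.

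Young replicate 4 stood lowest among the mice. It had the lowest value of all 8 mice for 12 of the 31 genes and the highest for 1. The median deviation of the 31 genes from their own means was -0.13 in that mouse, and -0.01, -0.06 and -0.01 in young replicates 1, 2 and 3. In old mice it was -0.01, 0.08, 0.10 and 0.07, old replicate 1 thus lying at the level of young replicates 1 and 3. Over genes above the dim threshold the same median was -0.013 in young replicate 4 and -0.054 in old replicate 1. Without young replicate 4 the median difference of the 31 genes was 0.06 in place of 0.11. Without it Man2b1 differed by 0.24 and Hexa by 0.26, while Npc2 differed by 0.18. No member passed limma's threshold with any single mouse left out. Without old replicate 2, 6 genes in place of 10 were higher at an unadjusted p under 0.05. Without old replicate 1, the ages did not overlap for 11 in place of 7.

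**Figure D3:**
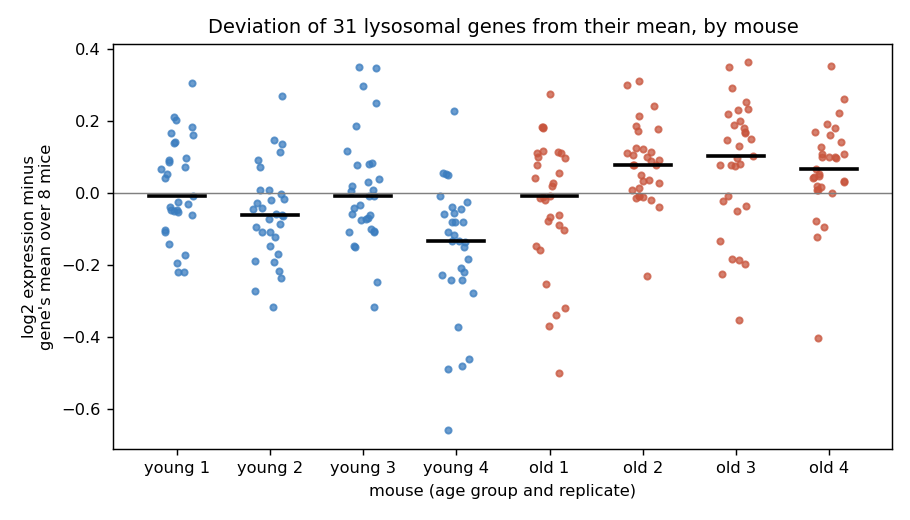
Deviation of each of the 31 genes from its own mean over the 8 mice (log2), by mouse. Points are genes, blue in young and red in old mice, and black lines give the median of a mouse, which is lowest in young replicate 4 (-0.13) and highest in old replicate 3 (0.10).

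The numbers in the sample titles form 2 runs, each with 2 young and 2 old mice (replicates 1 and 2, and replicates 3 and 4). Whether a run is a collection day is not stated. Within the first run the median difference of the 31 genes was 0.04, with 19 above 0. Within the second it was 0.16, with 26 above 0. The same medians over genes above the dim threshold were -0.035 and 0.02. Npc2 (0.19 and 0.24), Psap (0.17 and 0.23) and Asah1 (0.24 and 0.27) differed by like amounts in both runs. Man2b1 (0.20 and 0.59), Hexa (0.17 and 0.56) and Gaa (0.03 and 0.51) differed more in the second, to which young replicate 4 belongs. Tfe3 (0.34 and 0.11), Gm2a (0.25 and 0.16) and Mcoln1 (0.25 and 0.18) differed more in the first. The difference between runs was not tested.

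Probe sets of the same gene did not always give the same answer. Of the 31 genes, 16 had 27 further probe sets, 21 of them above the dim threshold, and 14 of these 21 had the sign of the one used. For Npc2 the other probe sets differed by 0.34 and 0.37 and for Psap by 0.28, in each case more than the brightest one. For Lamp2 they differed by 0.43 and 0.31 against 0.15, and the mean of its 3 probe sets differed by 0.30 and passed limma's threshold (adjusted p = 0.0425). For Gm2a, by contrast, they differed by 0.06 and -0.18 against 0.20, and for Cln3 by 0.00 against 0.20. For Ppt1 they differed by -0.05 and -0.14 against 0.02. Other probe sets of Ids above the dim threshold differed by 0.03, 0.08 and 0.29 against -0.04, and those below it by 0.02 and 0.005. One of 3 for Mcoln1 differed by 0.04 against 0.21. The other probe set of Ctsa differed by 0.20 against 0.10, and that of Tpp1, below the dim threshold, by 0.26 against 0.01. With each probe set tested on its own, limma's unadjusted p was 0.0166 and 0.006 for these. It was 0.047 for the Ids probe set at 0.29 and 0.0472 for the Gm2a probe set at -0.18. When every probe set was tested on its own, 2.57% of all probe sets passed and none of the members' did. The lowest adjusted p among them was 0.0715, for the second probe set of Psap.

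**Figure D4:**
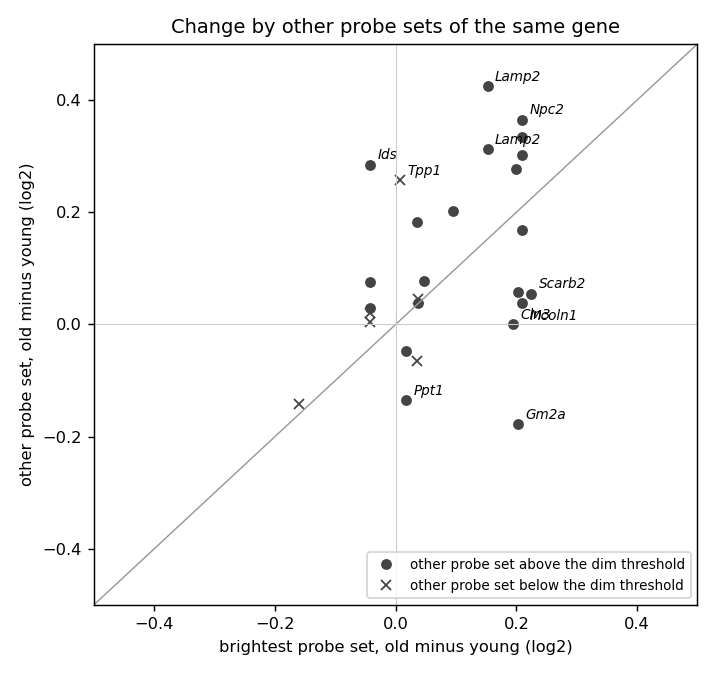
Difference between old and young mice (log2) by the brightest probe set of a gene (horizontal axis) and by each of its 27 other probe sets (vertical axis), as circles above and crosses below the dim threshold. The line marks equal differences. Ids, Lamp2, Tpp1 and Npc2 lie above it and Gm2a, Cln3, Scarb2, Mcoln1 and Ppt1 below.

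Other genes of the lysosome were examined from 7 further lists with 141 measured genes. Of these, 3 rose and 6 fell, or 6.38% against 3.97% of all genes, and their median difference was 0.00. Of the 141 genes, 129 lay above the dim threshold, and among all genes that bright 5.94% passed. Among 28 other hydrolases and their partners, 2 rose and 1 fell. Acp5, the tartrate-resistant acid phosphatase of lysosomes, fell most: it read 7.46, 6.71, 6.98 and 7.08 in young and 5.39, 5.81, 5.86 and 5.69 in old mice. Every old mouse lay below every young one. The change was -1.37 ± 0.16 (SE), to 0.387 of the young level (adjusted p = 0.00177). Gpnmb, a glycoprotein of lysosomes and melanosomes, rose by 0.68 ± 0.14, from 9.87 ± 0.30 to 10.55 ± 0.10 (SD, n = 4; adjusted p = 0.0248). With 1 mouse left out it passed only without young replicate 1 or young replicate 4 (adjusted p up to 0.0793). Sumf1, which activates sulfatases in the endoplasmic reticulum, rose by 0.54 ± 0.12 (adjusted p = 0.0373) but not on the mean of its probe sets (0.48, adjusted p = 0.337), on its dimmest one over the dim threshold (0.43, adjusted p = 0.578) or with arrays centred on their median (0.53, adjusted p = 0.0597). With 1 mouse left out it passed only without young replicate 3 or old replicate 1. Of the 9 further cathepsins, lysosomal proteases, none passed. At an unadjusted p under 0.05, Ctsf and Ctsh were higher by 0.40 ± 0.10 and 0.25 ± 0.08 (adjusted p = 0.0609 and 0.130).

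Of 29 other membrane proteins 1 rose and 1 fell. Lmbrd1, which takes part in the export of cobalamin from lysosomes, rose by 0.59 ± 0.11 (adjusted p = 0.0181), but not past the threshold without old replicate 3 or old replicate 4 (up to 0.0572). Laptm4b, a relative of Laptm4a, fell by 0.53 ± 0.10 (adjusted p = 0.0178), but not past the threshold without young replicate 2 or old replicate 2, nor on its dimmer probe set. Among 13 further pump subunits 2 fell, Atp6v0e by 0.41 ± 0.09 and Atp6v1f by 0.29 ± 0.07 (adjusted p = 0.0324 and 0.0494). With 1 mouse left out, Atp6v0e passed only without young replicate 2 or old replicate 3, and Atp6v1f only without old replicate 3. With all mice kept, Atp6v1f also missed the threshold in 5 of the alternatives: a prior by mean level, a robust prior, dim genes left out, array medians set equal and the dimmest probe sets (adjusted p of 0.0514 to 0.0856). Of 21 genes that sort hydrolases to the lysosome and 19 of MiT/TFE and lysosomal mTORC1 control, none passed. At an unadjusted p under 0.05, 1 sorting gene was higher and 2 were lower, and 3 control genes were higher and 3 lower. The shares of all genes were 6.8% higher and 8.28% lower, or 9.34% and 12.1% above the dim threshold. Of 22 autophagy genes, 2 fell, 17 had a difference below 0 and the median was -0.12. Limma's threshold was passed by 9.09% of the 22, against 3.97% of all genes and 5.94% of those above the dim threshold. Differences above 0 made up 22.7% of the 22, against 53.1% and 48.6%. Wipi2, which binds phosphoinositides on forming autophagosomes, fell by 0.65 ± 0.07, from 8.93 ± 0.06 to 8.29 ± 0.08 (SD, n = 4; adjusted p = 0.00113), and by like amounts in both runs of title numbers (-0.65 and -0.64). Ulk2, a kinase that starts autophagy, fell by 0.37 ± 0.07 (adjusted p = 0.0247). Its dimmest probe set among those over the dim threshold differed by -0.07 (adjusted p = 0.879) and the mean of its probe sets by -0.10 (adjusted p = 0.535), and it missed the threshold with a prior by mean level (adjusted p = 0.0856). With 1 mouse left out it passed only without young replicate 2 or old replicate 4.

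Of 10 fibroblast markers, 9 lay above the dim threshold, and 1, Thy1, fell by 0.61 with age (adjusted p = 0.00176). The probe set of Pdgfra, a gene of the sorting gate, lay below it (5.06 ± 0.25 in young and 4.47 ± 0.28 in old mice, adjusted p = 0.0808). Cd34 differed by 0.20 ± 0.06 (adjusted p = 0.129), and Ptprc (CD45) and Kit (CD117) lay below the dim threshold. Pecam1 (CD31) and Epcam differed by 0.17 ± 0.12 and 0.40 ± 0.10 (adjusted p = 0.585 and 0.0584). Cd24a, also selected against, fell by 2.74 ± 0.27, from 8.07 to 5.33 (adjusted p = 0.000785). Macrophages are rich in lysosomes. Of their 16 markers, 12 lay below the dim threshold, among them Adgre1, Itgam, Lyz2 and C1qa. The 4 above it were Csf1r (mean 8.83), Cd68 (6.75), Laptm5 (5.46) and Fcer1g (5.39), which differed by -0.03, 0.13, 0.21 and 0.19 (adjusted p = 0.947, 0.840, 0.476 and 0.255). None of the 16 passed limma's test, Fcer1g had an unadjusted p of 0.0318, and the mean level of the list was 4.73 to 4.83 in young and 4.83 to 4.88 in old mice. Melanocytes carry lysosome-related pigment granules. Gpnmb and Mitf, given above, are also expressed by melanocytes. Mlana, found in the granules, rose by 2.88 ± 0.34 (adjusted p = 0.00194). Pmel and Sox10, also above the dim threshold, differed by -0.09 ± 0.11 and -0.01 ± 0.09 (adjusted p = 0.834 and 0.989). Dct, Tyr, Tyrp1 and Kit lay below it. The mean level of the 8 markers, in which Mlana differed most, was 5.18 to 5.41 in young and 5.68 to 5.82 in old mice. Of 8 keratinocyte markers 6 lay above the dim threshold and none passed, and their mean level was 5.60 to 6.13 in young and 5.82 to 6.81 in old mice. Krt5 differed most, by 1.12 ± 0.42 (limma unadjusted p = 0.0239, adjusted p = 0.221), while Trp63 and Cdh1 differed by -0.33 and -0.03. Krt10 and Krt1 read 9.13 and 6.38 in old replicate 3 and at most 7.21 and 4.98 in the other mice. Of 5 measured markers of pericytes and smooth muscle, Kcnj8 rose by 1.16 ± 0.16 (adjusted p = 0.0035). The part of other cells in the differences of the lysosomal genes was not tested.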

How the data were processed

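The deposited values are log2 expression per probe set, made by the authors with RMA. The submitters' processing notes also name affy, with no versions or parameters. RMA normalizes arrays to a common distribution. The table held 45141 probe sets for 8 arrays, none identical, with array medians of 5.06 to 5.14. The number of arrays limits the precision.

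Symbols came from the platform annotation, checked through gene identifiers in a RefSeq table (GRCm38.p6), which changed 0 of them. 28898 probe sets had 1 symbol, 551 several and 15692 none. The brightest probe set of each gene left 17097 genes. Old was compared with young in limma 3.58.1 under R 4.3.3, by lmFit and then eBayes. Tests were 2-sided, and p-values were adjusted by Benjamini-Hochberg, in the main fit over the 17097 genes. Every adjusted p comes from such a fit, adjusted over all genes or probe sets in that fit. These were 45141 probe sets where each was tested on its own and 10560 genes where dim genes were left out. The script was tested on simulated data.

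The genes, lists and tests were chosen with earlier results of these data known. All measured members are named, as are list genes past the threshold (at most 4 a list), Mitf, Tfec, the genes of the gate and markers of other cells past the threshold. Ctsf, Ctsh and the named keratinocyte markers outside the gate were named after their values were seen. Macrophage and melanocyte markers that are named but did not pass also fall outside this rule, apart from Mitf and genes of the gate. Replicates are separate mice, numbered in accession order, and the numbers pair nothing. Alternatives changed the prior, the weights of arrays, a filter for dim genes, the probe set, the scaling, the threshold, a block of title number runs and the set of mice. The test of every probe set was added after seeing the data.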

Additional observations from a re-analysis of the deposited data

Results flagged for a closer look

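In old mice, Gm2a of old replicate 2 read 9.15, while the other 3 read 9.03 to 9.04. It was the only sample that stood far from the rest of its age among the 62 sets of 4 mice examined (31 genes in both ages), where chance alone marks about 1 in 20 such sets. Without that mouse Gm2a differed by 0.17 between the ages.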

How the results depend on the processing

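No member passed limma's threshold in any fit but these: 1 was higher with a prior by mean level (Npc2), 1 with the mean of probe sets (Lamp2) and 1 at an adjusted p under 0.1 (Npc2). Over all genes, 311 were higher and 368 lower in old mice. Array weights gave 473 higher, an adjusted p under 0.1 gave 494 and 588, and leaving out single mice gave 183 to 303 higher and 231 to 343 lower. With single mice left out, members at an unadjusted p under 0.05 numbered 6 to 11 higher and 1 to 2 lower (2 without young replicate 4 or old replicate 3), and those without overlap 7 to 11 higher and 0 to 1 lower (1 without young replicate 4 or old replicate 2). With the title number runs as a replicate block, 0 members passed and 11 were higher at an unadjusted p under 0.05. The median difference of the members lay between 0.06 and 0.15 under all alternatives run. Of 523 values of single members, 496 kept direction and side of the threshold and 25, of 11 genes, changed sign. These were -0.0311 for Arsb and -0.0194 for Lipa with array weights, 0.0621 for Ids and -0.055 for Ppt1 with the mean of probe sets, and 0.29 for Ids, -0.14 for Ppt1 and -0.18 for Gm2a on the dimmest probe set above the dim threshold. With single mice left out, the differences ran from -0.0017 to 0.0583 for Lamp1, -0.0358 to 0.131 for Atp6v1a, -0.0258 to 0.228 for Atp6v1h, -0.0283 to 0.135 for Ctsd, -0.0683 to 0.122 for Tpp1, -0.0067 to 0.103 for Galc, -0.0708 to 0.103 for Arsb, -0.0858 to 0.0042 for Ids, -0.0475 to 0.119 for Lipa and -0.035 to 0.105 for Ppt1. The difference of Tfec, which is not a member, ran from -0.0192 to 0.0775. The causes of these shifts were not tested. Signal near the dim threshold limits what can be seen of Tfeb and Arsb.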
